A study of Phyllostachys nigra with 21 samples.

Results

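Culms of black bamboo (Phyllostachys nigra, Pn) held at 4 °C for 15 days were compared with culms collected before any treatment. The cold group (LT15d) and the untreated group (CK) were taken from the labels of the libraries and held 3 RNA-seq libraries each, 6 of the 21 libraries of the series. In the study, Pn was grown from rhizomes in greenhouse pots, and plants with green young culms were moved to growth chambers at low temperature (LT, 4 °C) or room temperature (RT, 25 °C) and sampled after 1, 15, and 25 days. Pn culms turn from green to black with age, and the study asked how low temperature bears on the genes behind that colour change. RT15d (25 °C for 15 days) and LT1d and LT25d (4 °C for 1 and 25 days), with 3 libraries each, are used here only to place the change from CK. All of these groups were Pn culms, and no genotype or agent besides temperature was named in the labels. LT15d differed from CK in temperature and also in 15 days of chamber growth, which cannot be told apart in LT15d against CK alone, whereas RT15d shared those 15 days. The study speaks of several young shoots per treatment and of biological repeats, but the labels do not tie each library to a plant. The p-values therefore measure only a spread between libraries. That spread was estimated per gene over all 21 libraries of the series, among which CK varied more than LT15d.

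Plants that survive chilling pass through cold acclimation. Transcription factors of the CBF/DREB family switch on cold-regulated genes, dehydrins and other hydrophilic proteins accumulate, soluble sugars such as sucrose and raffinose build up, and membrane lipids are remodelled so that they stay fluid. Light capture in chilled green tissue can outrun the enzymes that use its energy, so pigment proteins and antioxidant enzymes are often adjusted as well. The gene names used here are the best matches of each gene to proteins of other species in the deposited annotation, and the roles given are those known for such proteins in plants such as Arabidopsis, rice, or wheat. Bamboos of this genus descend from a polyploid ancestor, so near-identical copies can share or split reads, and values of such copies are uncertain.

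Each library held 44726468 to 49887642 counts in LT15d and 44959388 to 46696000 in CK. Levels are given as FPKM, the number of sequenced fragments scaled to the length of the transcript and to the depth of the library, always in the order of replicates 1, 2, and 3, and a change written as from and to runs from CK to LT15d. CK replicate 1 stood apart from the other CK libraries, with a Pearson correlation of FPKM across genes of 0.742 and 0.798 with replicates 2 and 3, which correlated at 0.963 with each other. The LT15d libraries correlated at 0.999, and over 1791 genes with more than 5000 counts on average, replicates varied by a median of 2.48% (coefficient of variation) in LT15d and 23.0% in CK. The 100 most abundant genes took 12.9% to 13.0% of the counts in LT15d and 9.25% to 10.3% in CK. Of the cell type markers, those of xylem and secondary wall (16 tested genes), phloem (6), dividing cells (31), and green tissue (12) had counts above 0 in at least 1 library of both groups for every gene, which does not show how many such cells were present. Of 43 epidermis and cuticle markers, 1 was at 0 in every CK library and another in every LT15d library.

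Expression differed between LT15d and CK in 11542 of 29913 tested genes (38.6%), a difference that includes both the cold and the 15 days of growth. Compared with CK, 4847 genes (16.2%) were upregulated and 6695 (22.4%) were downregulated in LT15d. A gene was counted as a differentially expressed gene (DEG) when the Benjamini-Hochberg adjusted p of edgeR's quasi-likelihood test was at most 0.05 and the change at least 2-fold, that is, a log2 fold change of at least 1 in size. Tested genes were those of the 42460 that reached an FPKM of 1 in 3 or more of the 21 libraries. The median log2 fold change was 1.70 among upregulated and -1.85 among downregulated DEGs, and it was -0.11 over all tested genes. Of the upregulated DEGs, 802 rose by 3 or more on the log2 scale, and 1455 of the downregulated DEGs had a log2 fold change of -3 or less. The FPKM of the LT15d and CK libraries did not overlap for 4698 upregulated (96.9%) and 6237 downregulated DEGs (93.2%), against 62.8% of all tested genes. Without CK replicate 1, 4968 genes were up and 6618 down, and 4281 and 5904 of the original calls were kept. A fit of only the 6 compared libraries gave 4669 up and 5653 down. When the 3 LT15d libraries were summed to 1, 4470 were up and 5155 down. In bulk culm RNA, fewer cells of a type and less RNA per cell cannot be told apart.

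**Figure D1:**
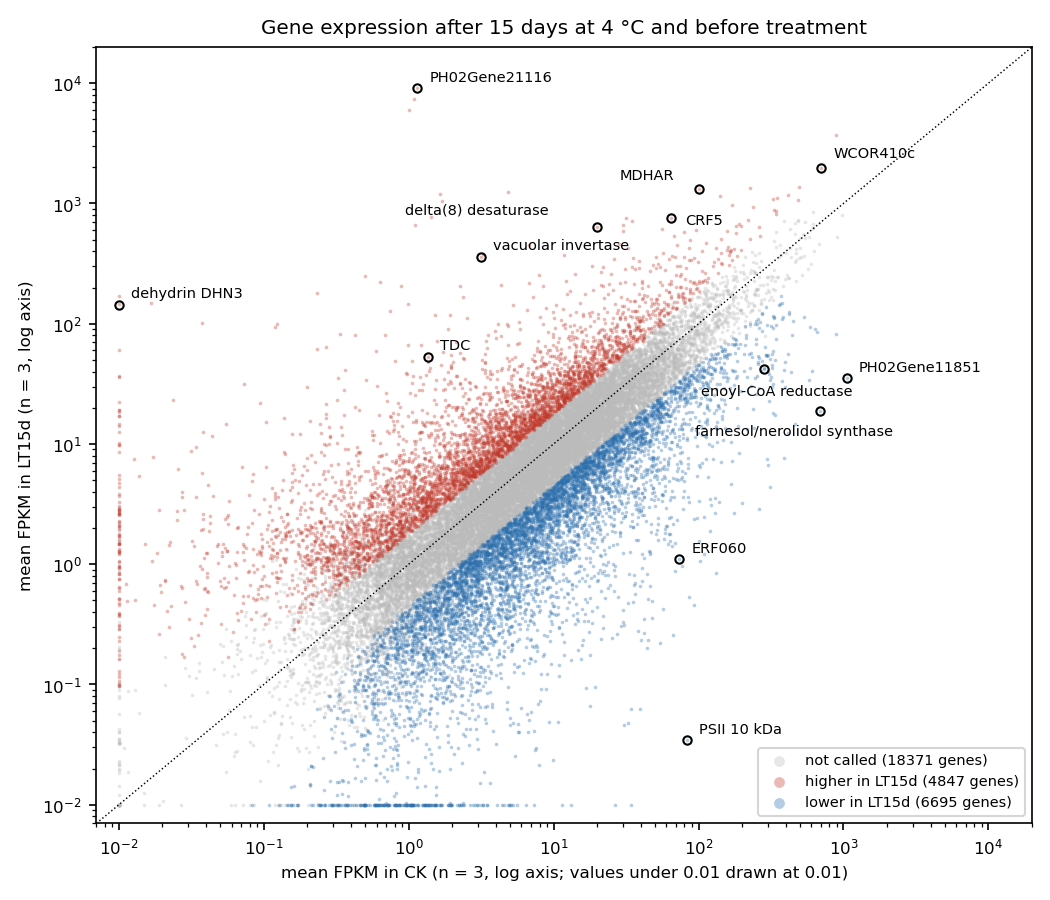
Mean FPKM of each tested gene in CK (horizontal, log axis) and in LT15d (vertical, log axis), 3 libraries each, with upregulated DEGs in red, downregulated DEGs in blue, and other genes in grey. Values under 0.01 are drawn at 0.01, the dotted line marks equal levels, and genes described in the text are labelled. The 4847 upregulated and 6695 downregulated genes lie on both sides of the line at all levels, and the farthest abundant gene above it is PH02Gene21116 (mean FPKM 1.15 in CK and 9068 in LT15d).

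The most abundant transcripts of LT15d came from 3 neighbouring genes that were barely expressed in CK. PH02Gene21115, PH02Gene21116, and PH02Gene21117 lie side by side on scaffold 9 of the genome of moso bamboo (P. edulis), between 58783410 and 58851692. PH02Gene21116 had an FPKM of 0.643, 1.67, and 1.13 in CK and 8666, 9343, and 9194 in LT15d. Every LT15d library was far above every CK library (log2 fold change 13.00 ± 0.70 (SE), edgeR adjusted p = 1.8e-10). PH02Gene21115 was measured at 0.905, 1.29, and 0.837 in CK and 6039, 5809, and 6177 in LT15d, with the same separation of the groups (log2 fold change 12.62 ± 0.65 (SE), edgeR adjusted p = 1.1e-10). PH02Gene21117, matched to a partial rice protein of unknown function, reached 0.712, 1.87, and 0.664 in CK and 7370.2, 7489, and 7268 in LT15d (log2 fold change 12.80 ± 0.80 (SE), edgeR adjusted p = 8.3e-10). Together these genes made up 4.35% to 4.51% of all FPKM in LT15d, 0.000447% to 0.000977% in CK, 0.0387% to 0.0478% in RT15d, 0.0123% to 0.0306% in LT1d, and 2.18% to 2.23% in LT25d. PH02Gene21115 and PH02Gene21116 carry no description, and each spans less than a kilobase.

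**Figure D2:**
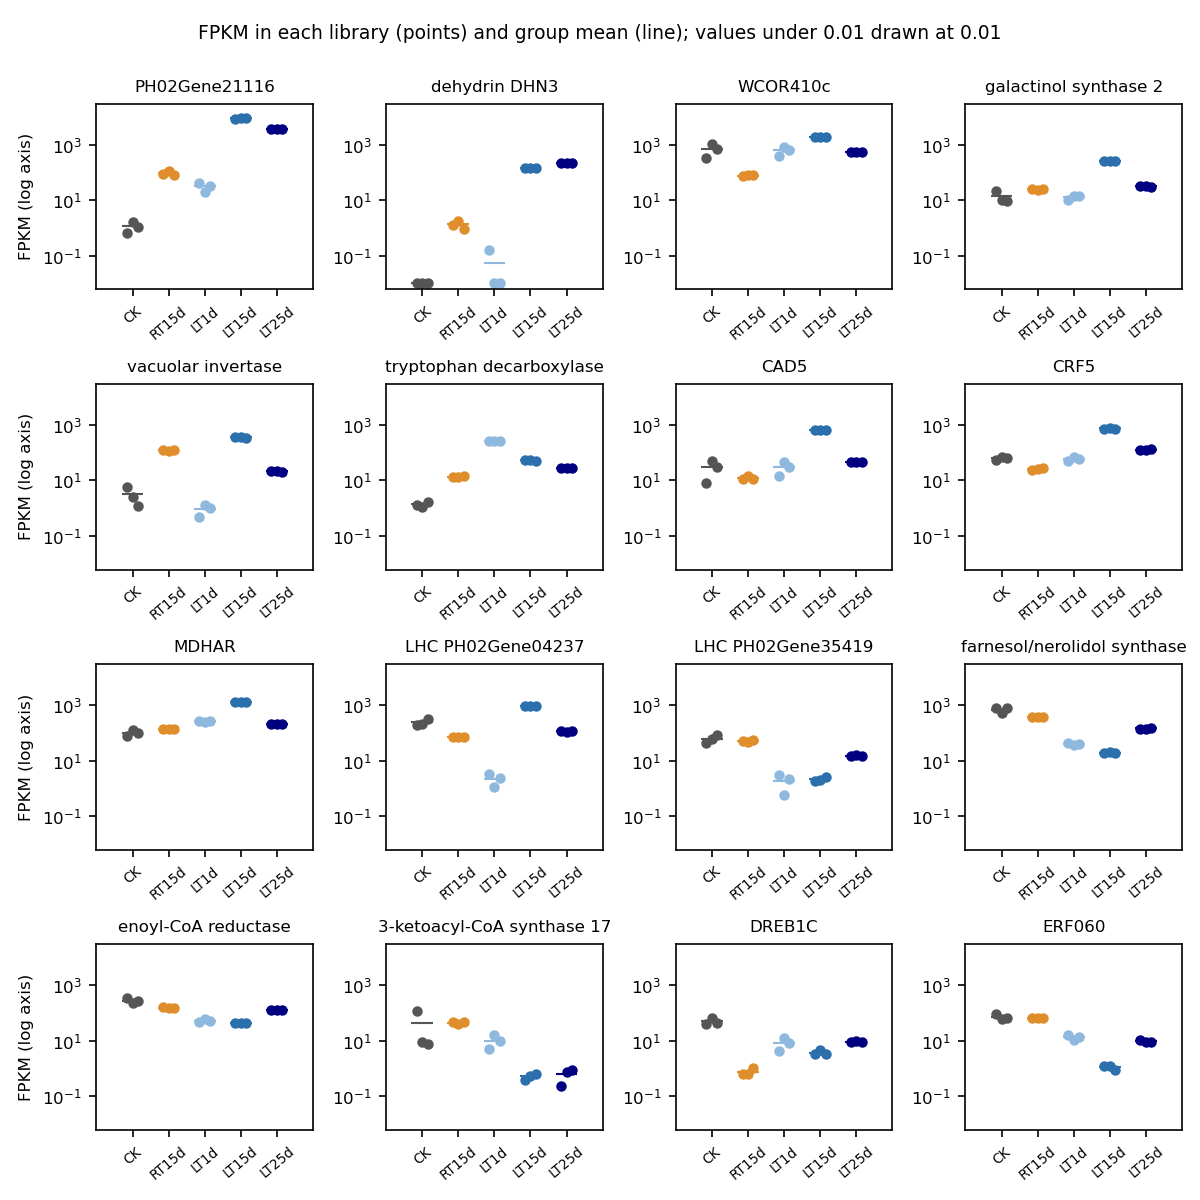
FPKM of 16 genes in each library (points; log axes; values under 0.01 drawn at 0.01) and the mean of each group (lines) for CK, RT15d, LT1d, LT15d, and LT25d, 3 libraries each. The replicates of LT15d lie close together in every panel. PH02Gene21116 and dehydrin DHN3 stay high at LT25d (mean FPKM 3759 and 224), whereas CAD5 (cinnamyl alcohol dehydrogenase 5) and CRF5 are much lower there (mean FPKM 46 and 128) than at LT15d (mean FPKM 663 and 751).

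Among the largest rises, dehydrin DHN3 and several proteins of unknown function went from no count in any CK library to an abundant transcript. PH02Gene07646, matched to dehydrin DHN3, a hydrophilic protein that shields cells from water loss (scaffold 13, 30469947 to 30470837), had an FPKM of 0, 0, and 0 in CK and 143, 149, and 142 in LT15d. Its level in LT15d was at least 572-fold higher than in CK, a bound set against 12 counts per CK library (3 read pairs, assumed to give 4 counts each) that covers counting error only (edgeR adjusted p = 2.9e-09). PH02Gene04879, an uncharacterized protein, was listed at 0 in all CK libraries and at 167, 176, and 168 in LT15d, at least 404-fold higher (edgeR adjusted p = 1.9e-09). A family of 5 genes that share 1 uncharacterized match (PH02Gene38574, PH02Gene38576, PH02Gene38580, PH02Gene38581, and PH02Gene41470) had no count in CK or LT1d. Their mean FPKM ranged from 17.2 (PH02Gene38580) to 60.8 (PH02Gene38581) in LT15d, at least 75.6-fold and 255-fold higher than in CK. At LT25d the family was higher still in PH02Gene38581 (mean FPKM 223 ± 2.5, SD, n = 3; log2 fold change -1.48 ± 0.41 (SE), edgeR adjusted p = 0.0089 for LT15d against LT25d). Reads of these copies cannot be assigned with certainty, since 4 of them lie close together on scaffold 5 and their levels moved alike. Others of the 12 largest rises were PH02Gene22128 and PH02Gene42996, both of unknown function and at least 271-fold and 163-fold higher than in CK, and PH02Gene25931 (mean FPKM 149 in LT15d).

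The largest falls included photosystem II genes, methyltransferases of a scent compound, and a triterpene cyclase. PH02Gene33934, matched to achilleol B synthase, a triterpene cyclase, had an FPKM of 1.66, 16.6, and 15.9 in CK and 0, 0, and 0 in LT15d. No LT15d library had a count, at least 134-fold lower than the CK mean, to which CK replicate 1 added little (edgeR adjusted p = 4.3e-06). PH02Gene28806 and PH02Gene27593 matched anthranilate O-methyltransferases, which make the volatile methyl anthranilate in maize. PH02Gene28806 fell from 8.85, 16.5, and 14.2 in CK to 0 in all LT15d libraries, at least 64.4-fold lower, and PH02Gene27593 from 39.5 ± 3.23 to 0.0629 ± 0.0813 (mean ± SD, n = 3; log2 fold change -9.02 ± 1.44 (SE), edgeR adjusted p = 3.8e-05). A photosystem II 10 kDa polypeptide gene, PH02Gene09620, had an FPKM of 172, 30.7, and 44.7 in CK and 0.104, 0, and 0 in LT15d. CK replicate 1 was the highest of the CK libraries, and none of them came near LT15d (log2 fold change -10.85 ± 1.05 (SE), edgeR adjusted p = 1.4e-07, and log2 fold change -9.90 without CK replicate 1). PH02Gene31640 and PH02Gene24033, both matched to 1 uncharacterized protein of Aegilops tauschii, a wheat relative, were near or at 0 in LT15d and RT15d alike, with mean FPKM of 34.3 and 34.1 in CK. PH02Gene11851, the most abundant transcript of CK by mean FPKM, which the deposited annotation lists under tryptophan synthase activity, was at 1650.4, 833, and 670.2 in CK and 35.2, 37.3, and 32.7 in LT15d. Every LT15d library lay far below every CK library (log2 fold change -4.73 ± 0.67 (SE), edgeR adjusted p = 1.0e-05).

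Genes of cold protection were upregulated as a group. Of 16 tested late embryogenesis abundant (LEA) and dehydrin genes, which keep proteins and membranes stable when water is short, 12 rose and 1 fell, with a median log2 fold change of 3.85, against 16.2% of all genes up and a median of -0.11. Their summed FPKM was 4460.3 to 4529 in LT15d, 546 to 1552 in CK, and 324 to 341 in RT15d, without overlap. The most abundant member, PH02Gene13412, matched to the wheat cold acclimation protein WCOR410c (scaffold 17, 24624144 to 24625846), had an FPKM of 332, 1069.8, and 700.1 in CK and 1973, 1952, and 1967 in LT15d. All CK libraries lay below LT15d, replicate 1 lowest and replicate 2 highest (log2 fold change 1.57 ± 0.35 (SE), edgeR adjusted p = 8.8e-04). PH02Gene07648, matched to dehydrin DHN1, lies near the DHN3 gene on scaffold 13 and was at 0.0578, 0.0541, and 0 in CK and 102, 104, and 97.4 in LT15d (log2 fold change 11.21 ± 0.55 (SE), edgeR adjusted p = 7.3e-11). The exception was PH02Gene23248, a Lea5-D protein gene, with 53.7 ± 4.75 in CK and 17 ± 0.606 in LT15d (mean FPKM ± SD, n = 3; log2 fold change -1.53 ± 0.30 (SE), edgeR adjusted p = 2.4e-04). Without CK replicate 1 the counts for the list were 12 up and 1 down.

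Sugar genes were upregulated in a larger share than all genes (16.2%), and some single enzymes changed steeply. Of 12 raffinose family genes, 6 rose and 0 fell (median log2 fold change 1.14). Galactinol synthase supplies the galactosyl donor for raffinose, and PH02Gene36619, one of its genes, had an FPKM of 22.5, 10.2, and 9.22 in CK and 260.2, 259, and 258 in LT15d. All LT15d libraries lay far above the highest CK library, replicate 1 (log2 fold change 4.39 ± 0.24 (SE), edgeR adjusted p = 1.7e-10). Its neighbour PH02Gene36618, matched to the same enzyme, was more abundant at 182, 75.5, and 59.8 in CK and 406, 408, and 400.0 in LT15d, with CK replicate 1 highest among the controls (log2 fold change 2.13 ± 0.25 (SE), edgeR adjusted p = 1.4e-06). PH02Gene48920, matched to a galactinol-sucrose galactosyltransferase, which makes raffinose itself, rose from 4.04 ± 2.81 to 27 ± 1.07 (mean FPKM ± SD, n = 3; log2 fold change 2.81 ± 0.54 (SE), edgeR adjusted p = 2.5e-04). Of 72 sucrose and trehalose genes, 22 rose (30.6%) and 17 fell (23.6%), with a median of -0.09. Vacuolar invertase splits sucrose into hexoses, and PH02Gene05689 had an FPKM of 5.74, 2.52, and 1.19 in CK and 371, 361, and 354 in LT15d. The groups were far apart, with CK replicate 1 the highest control (log2 fold change 7.03 ± 0.54 (SE), edgeR adjusted p = 9.4e-09). Its neighbour PH02Gene05690 changed likewise (mean FPKM 2.27 in CK and 205 in LT15d; log2 fold change 6.67 ± 0.57 (SE), edgeR adjusted p = 3.1e-08). A trehalose-phosphate phosphatase gene, PH02Gene50233, which completes trehalose synthesis, was at 14.8, 2.36, and 3.09 in CK and 468, 455, and 424 in LT15d (log2 fold change 6.28 ± 0.70 (SE), edgeR adjusted p = 7.3e-07). The sucrose synthase gene PH02Gene02657, in contrast, declined from 153 ± 24.1 to 61.6 ± 2.68 (log2 fold change -1.18 ± 0.22 (SE), edgeR adjusted p = 2.1e-04). Among 58 starch genes, 17 rose (29.3%) and 14 fell (24.1%). Soluble starch synthase II2 (PH02Gene01052) rose from 14.1 ± 1.53 to 53.6 ± 0.555 (log2 fold change 2.07 ± 0.19 (SE), edgeR adjusted p = 8.7e-08), while soluble starch synthase III1 (PH02Gene32126) fell from 17.9 ± 11.1 to 1.05 ± 0.156 (log2 fold change -4.01 ± 0.44 (SE), edgeR adjusted p = 5.3e-07). The inactive beta-amylase 9 gene PH02Gene10442, the most abundant starch gene that fell, was at 250.1, 363, and 292 in CK and 54.3, 53.7, and 57 in LT15d (log2 fold change -2.34 ± 0.17 (SE), edgeR adjusted p = 4.5e-09).

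Fatty acid desaturases, which introduce the double bonds that keep membranes fluid, moved in both directions. Of 19 tested genes, 4 rose (21.1%, against 16.2% of all genes) and 7 fell (36.8%, against 22.4%), with a median of -0.41. Their summed FPKM was 999 to 1046 in LT15d, 1094 to 1921 in CK, and 351 to 364 in RT15d. Against RT15d, 6 were higher and 6 lower (median 0.61). PH02Gene30788, matched to a delta(8)-fatty-acid desaturase, which acts on the sphingolipid base of plasma membranes, had an FPKM of 14, 26.5, and 19 in CK and 658, 624, and 636 in LT15d. All LT15d libraries lay far above CK (log2 fold change 5.12 ± 0.29 (SE), edgeR adjusted p = 3.3e-10), and the gene was at 17.4, 21.9, and 17.7 in RT15d. An omega-3 desaturase gene of the endoplasmic reticulum, PH02Gene00068, was at 371, 1010.1, and 529 in CK and 93.2, 88.7, and 87.9 in LT15d. Every LT15d library was lower than the lowest CK library, replicate 1 (log2 fold change -2.74 ± 0.44 (SE), edgeR adjusted p = 4.3e-05). The stearoyl-ACP desaturase gene PH02Gene07862 and the DES3-like gene PH02Gene44248 fell furthest, to mean FPKM of 0.095 and 0.236 from 19.3 and 44.6.

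DREB/CBF genes were more often lower (50%) than higher (12.5%) after 15 days of cold, against 22.4% and 16.2% of all genes. Of 16 tested members, 2 rose and 8 fell (median -1.53), and the lower calls went to 3 when the LT15d libraries were summed to 1. PH02Gene23182, matched to DREB1C, one of the factors that start the cold response in Arabidopsis, had an FPKM of 39.5, 66, and 44.9 in CK and 3.19, 4.64, and 3.34 in LT15d. All CK libraries were above all LT15d libraries (log2 fold change -3.63 ± 0.67 (SE), edgeR adjusted p = 1.6e-04). It was lowest in RT15d, at 0.622, 0.605, and 1.03 (log2 fold change 2.70 ± 0.70 (SE), edgeR adjusted p = 0.0029 for LT15d against RT15d). The summed FPKM of the list was 353 to 359.5 in LT15d and 273 to 422 in CK, which overlap, and 106 to 111 in RT15d. PH02Gene41094, a DREB2C-like gene of the drought branch, rose from 51 ± 20.6 to 161 ± 3.78 (mean FPKM ± SD, n = 3; log2 fold change 1.83 ± 0.15 (SE), edgeR adjusted p = 2.1e-08). In LT15d against RT15d, where 19.3% of all genes were higher and 20.8% lower, 9 of the 16 members were higher and 0 lower.

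WRKY and ERF factors fell in a larger share than all genes, whereas NAC and MYB factors were closer to the share of all genes (16.2% up, 22.4% down). Of 105 WRKY factors, which act in defence and stress, 18 rose (17.1%) and 48 fell (45.7%, median -0.69). Of 64 ERF factors, 9 rose and 24 (37.5%) fell (median -0.81). The medians were -0.41 for 83 NAC factors (13 up, 24 or 28.9% down) and -0.29 for 116 MYB factors (22 up, 35 or 30.2% down). In RT15d against CK (all genes 10.4% up, 15.3% down), 0 ERF factors rose and 32 fell (median -1.22). In LT15d against RT15d (all genes 19.3% higher, 20.8% lower), 23 ERF factors were higher and 12 lower (median 0.62). NAC factors were higher than in RT15d in 32 and lower in 15, WRKY factors in 25 and 28, and MYB factors in 27 and 28. CRF5 is a cytokinin response factor of the ERF family, and its gene PH02Gene25072 had an FPKM of 54.4, 72.4, and 66.5 in CK and 743, 769, and 742 in LT15d. All LT15d libraries were far above CK, and the spread within both groups was small (log2 fold change 3.66 ± 0.18 (SE), edgeR adjusted p = 7.8e-11). ERF060 (PH02Gene08579) moved the opposite way, from 94.1, 62.2, and 64.3 to 1.23, 1.2, and 0.871. All LT15d libraries were near 1 FPKM, and RT15d stayed at 65.1, 68.3, and 67.5 (log2 fold change -5.89 ± 0.26 (SE), edgeR adjusted p = 2.5e-11). Within the NAC family, PH02Gene10707, NAC48-like, rose from 109.8, 247, and 215 to 682, 672, and 689 (log2 fold change 1.94 ± 0.28 (SE), edgeR adjusted p = 1.4e-05), and NAC105-like (PH02Gene32073) fell from 61.6, 67.7, and 47.2 to 1.75, 1.56, and 2.12 (log2 fold change -4.88 ± 0.35 (SE), edgeR adjusted p = 3.7e-09). WRKY60 (PH02Gene30731) was the most abundant WRKY gene that fell, with 262 ± 54.3 in CK and 91.6 ± 0.549 in LT15d, and WRKY75 (PH02Gene46266) the most abundant that rose, with 22.3 ± 8.21 and 78.3 ± 4.71 (mean FPKM ± SD, n = 3). Their log2 fold changes were -1.40 ± 0.18 and 1.98 ± 0.23 (SE), with edgeR adjusted p of 2.9e-06 and 1.1e-06. Among MYB genes, PHL11 (PH02Gene10199), of the phosphate starvation response type, rose from 0.693 ± 0.168 to 26.4 ± 1.25, and JAMYB (PH02Gene45178), a jasmonate-responsive factor in rice, fell from 86.3 ± 56.3 to 14.8 ± 2.57.

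**Figure D3:**
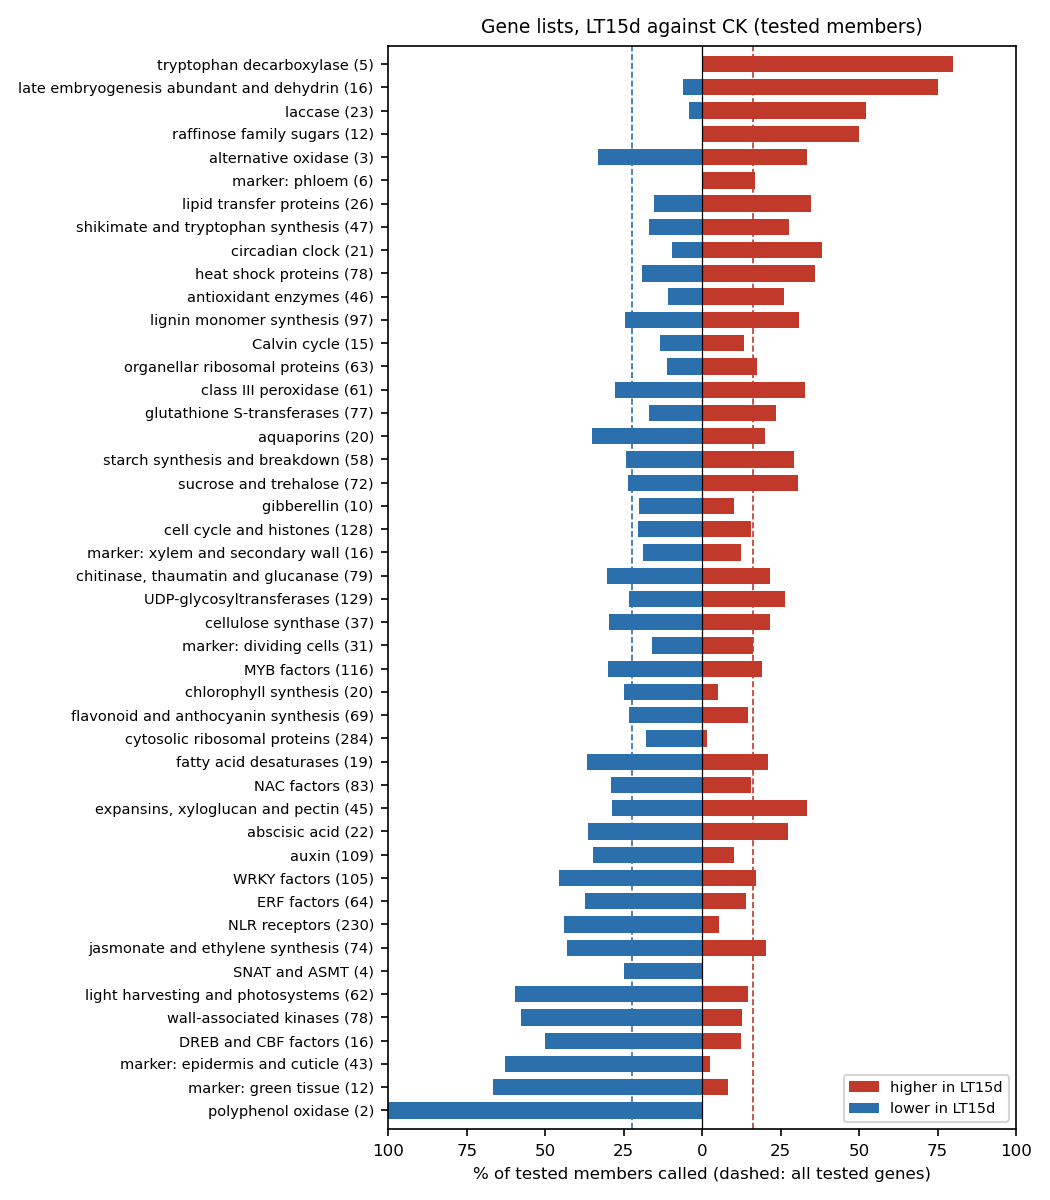
Share of the tested members of each gene list called higher (red, right) or lower (blue, left) in LT15d against CK, with the number of tested members in brackets and lists sorted by median log2 fold change. Dashed lines mark all tested genes (16.2% higher, 22.4% lower). Tryptophan decarboxylase, LEA and dehydrin, laccase, and raffinose genes stand at the top, and polyphenol oxidase, green tissue, and cuticle genes at the bottom.

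Tryptophan is the source of serotonin, melatonin, and other indole compounds in plants, and its branch of the shikimate pathway was of interest to the study. Tryptophan decarboxylase (TDC) opens the indoleamine branch by making tryptamine. Genes matched to its family, the aromatic-L-amino-acid decarboxylases, are called TDC genes here. Of these, 4 of 5 were upregulated (80%, against 16.2% of all genes, median log2 fold change 4.69). At 25 °C, in RT15d against CK, 5 of 5 TDC genes were upregulated (median 4.01, against 10.4% of all genes up). The same held against CK for 5 of 5 in LT1d and in LT25d (14.2% and 11.3% of all genes up). Their summed FPKM was 3.23 to 3.77 in CK, 111 to 115 in LT15d, 44 to 46.5 in RT15d, and 525 to 593 in LT1d. PH02Gene42909 (scaffold 22, 54002343 to 54004248) had an FPKM of 1.26, 1.14, and 1.66 in CK and 53.8, 54.1, and 51.8 in LT15d. The LT15d libraries stood far above CK (log2 fold change 5.44 ± 0.70 (SE), edgeR adjusted p = 3.6e-06). PH02Gene31517 (scaffold 18, 15679858 to 15687862) was at 0.991, 1.27, and 0.968 in CK and 36.9, 37.8, and 36.2 in LT15d (log2 fold change 5.22 ± 0.67 (SE), edgeR adjusted p = 3.7e-06). The neighbours PH02Gene26873 and PH02Gene26874 reached mean FPKM of 5.6 and 17.1 in LT15d from 0.254 and 0.739 in CK, and PH02Gene42906 stayed at 0.138 ± 0.0671 in LT15d (log2 fold change 2.24 ± 1.19 (SE), edgeR adjusted p = 0.11), short of a call. Upstream, 13 of 47 shikimate and tryptophan synthesis genes rose (27.7%, against 16.2% of all genes). In the same list 8 fell, a smaller share than the 22.4% of all genes. The abundant gene PH02Gene11851, described above under tryptophan synthase activity, is outside this list and fell steeply. The examples that follow are genes that rose. Tryptophan synthase beta chain 2 (PH02Gene10139), which joins indole with serine, had an FPKM of 30.1, 23.8, and 30.4 in CK and 474, 457, and 462 in LT15d, with no overlap (log2 fold change 4.19 ± 0.46 (SE), edgeR adjusted p = 6.4e-07). DAHP synthase 1 (PH02Gene26173), the entry enzyme of the shikimate pathway, was at 21.1, 15, and 20.2 in CK and 202, 186, and 189 in LT15d (log2 fold change 3.51 ± 0.12 (SE), edgeR adjusted p = 4.2e-12).

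The 4 tested genes that lead from serotonin to melatonin were too few to set apart from all genes (16.2% up, 22.4% down). The enzymes SNAT (serotonin N-acetyltransferase) and ASMT, an O-methyltransferase of acetylserotonin, turn serotonin into melatonin. Of the 4 tested genes, 0 rose and 1 fell (25%). SNAT1 gene PH02Gene05544 had an FPKM of 28, 17.7, and 19.9 in CK and 7.65, 6.6, and 8.64 in LT15d, with all LT15d libraries below CK (log2 fold change -1.36 ± 0.16 (SE), edgeR adjusted p = 1.4e-06). The second SNAT1 gene, PH02Gene02432, was at 13.4, 10.4, and 11.8 in CK and 5.5, 6.65, and 6.06 in LT15d, also without overlap but with a change of less than 2-fold (log2 fold change -0.82 ± 0.16 (SE), edgeR adjusted p = 2.1e-04). Both ASMT1 genes, PH02Gene07987 and PH02Gene42942, were under 5 FPKM in every CK and LT15d library, and their groups overlapped. Polyphenol oxidases oxidize phenols to the quinones of brown and black pigments, and both tested genes were called lower, or 1 of them when only the 6 compared libraries were fitted. PH02Gene01841 was at 0, 55, and 71.5 in CK and 0.194, 0.313, and 0.303 in LT15d, so CK replicate 1 had none and lay below LT15d, and the groups overlapped (log2 fold change -7.19 ± 1.39 (SE), edgeR adjusted p = 2.5e-04, and log2 fold change -7.80 without CK replicate 1). PH02Gene03906 was at 2.67, 0.126, and 0.741 in CK and 0.178, 0, and 0 in LT15d, a low level in every library (log2 fold change -4.0 ± 1.01 (SE), edgeR adjusted p = 0.0024). Of the alternative oxidase genes, which bypass part of the mitochondrial electron chain, AOX1a (PH02Gene02263) rose from 11.2, 10.8, and 9.86 to 32.1, 35.2, and 35.8 (log2 fold change 1.84 ± 0.23 (SE), edgeR adjusted p = 2.2e-06). AOX1c (PH02Gene08774) was at 5.6, 7.38, and 10.3 in CK and 3.46, 2.71, and 3.11 in LT15d and was called lower (log2 fold change -1.21 ± 0.32 (SE), edgeR adjusted p = 0.0031), but not without CK replicate 3 or with LT15d summed to 1 library. The second AOX1a gene, PH02Gene10197, had 5.57 ± 3.28 in CK and 9.02 ± 0.335 in LT15d (log2 fold change 0.89 ± 0.24 (SE), edgeR adjusted p = 0.0037) and was called higher only without CK replicate 1 (log2 fold change 1.33, edgeR adjusted p = 3.8e-06).

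Laccases, another kind of phenol oxidase, rose as a group. They oxidize monolignols for lignin polymerization, and 12 of 23 tested genes were up and 1 down (median 1.84), or 12 and 1 without CK replicate 1. Their summed FPKM was 146 to 148 in LT15d, 12.1 to 82.5 in CK, and 41.6 to 44.2 in RT15d. The most abundant, the laccase-25-like gene PH02Gene40848, had an FPKM of 0.296, 5.15, and 4.68 in CK and 47.3, 48.9, and 47.4 in LT15d. The lowest was CK replicate 1, and LT15d was above all of CK (log2 fold change 3.89 ± 0.75 (SE), edgeR adjusted p = 2.4e-04). Laccase-24 (PH02Gene48358) rose from 0, 3.79, and 1.36 to 27.8, 29.1, and 26.7 (log2 fold change 4.06 ± 0.89 (SE), edgeR adjusted p = 7.5e-04), and laccase-20-like (PH02Gene45395) from 0.334, 1.96, and 1.41 to 15.8, 15.5, and 14.2 (log2 fold change 3.69 ± 0.42 (SE), edgeR adjusted p = 8.6e-07). The member that fell was PH02Gene33834, at 0.213, 52.7, and 56.5 in CK and 0.564, 0.812, and 0.307 in LT15d, where CK replicate 1 lay below LT15d and the groups overlapped (log2 fold change -5.94 ± 1.24 (SE), edgeR adjusted p = 4.8e-04). Of 61 class III peroxidases, which also couple monolignols, 20 rose (32.8%, against 16.2% of all genes) and 17 fell (27.9%, against 22.4%). Peroxidase 2 (PH02Gene19589) had an FPKM of 105, 33.7, and 47.2 in CK and 351, 341, and 347 in LT15d, and the LT15d libraries lay above all CK libraries (log2 fold change 2.68 ± 0.30 (SE), edgeR adjusted p = 9.0e-07). Peroxidase 8 (PH02Gene08066) was at 859, 234, and 258 in CK and 105, 105, and 106 in LT15d, with CK replicate 1 several times above the others (log2 fold change -1.89 ± 0.33 (SE), edgeR adjusted p = 9.7e-05, and log2 fold change -1.19 without that library).

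Lignin monomer genes were upregulated in a larger share than all genes, whereas flavonoid genes were called in about the share of all genes (16.2% up, 22.4% down). Of 97 lignin monomer genes, 30 rose (30.9%) and 24 fell (24.7%, median 0.22), while their summed FPKM was 4076 to 4133 in LT15d, 1499 to 2367 in CK, and 3534 to 3814 in RT15d. Cinnamyl alcohol dehydrogenase makes the final monolignol alcohols, and PH02Gene38470, matched to CAD5, had an FPKM of 8.15, 50.7, and 30.9 in CK and 668, 657, and 662 in LT15d. CK replicate 1 was the lowest and all CK libraries were far below LT15d (log2 fold change 4.54 ± 0.62 (SE), edgeR adjusted p = 6.9e-06), and RT15d was at 11.6, 14.6, and 10.9. Phenylalanine ammonia-lyase (PAL) opens the phenylpropanoid pathway, and PH02Gene30508 had an FPKM of 32.4, 45.4, and 44.5 in CK and 225, 215, and 218 in LT15d, with no overlap (log2 fold change 2.55 ± 0.34 (SE), edgeR adjusted p = 6.2e-06). Cinnamoyl-CoA reductase 1-like (PH02Gene25609) fell from 3.97, 9.63, and 12.2 to 0.108, 0.212, and 0.215 (log2 fold change -5.42 ± 0.50 (SE), edgeR adjusted p = 7.2e-08), and a ferulate 5-hydroxylase gene (PH02Gene29718) from 27.3, 58.6, and 60.2 to 17.4, 17.1, and 15.6 (log2 fold change -1.44 ± 0.24 (SE), edgeR adjusted p = 5.9e-05). Among 69 flavonoid and anthocyanin genes, 10 rose (14.5%) and 16 fell (23.2%). Chalcone synthase starts flavonoid synthesis, and PH02Gene44458 rose from 0.181, 0, and 0.292 to 11.3, 13.9, and 11 (log2 fold change 6.40 ± 0.68 (SE), edgeR adjusted p = 4.3e-07). An anthocyanidin reductase-like gene (PH02Gene20359), of the branch to proanthocyanidins, rose from 2.05, 9.39, and 9.72 to 50.2, 52.4, and 51.5 (log2 fold change 2.95 ± 0.50 (SE), edgeR adjusted p = 7.4e-05). The flavanone 3-dioxygenase gene PH02Gene00618 was at 336, 51, and 58.6 in CK and 39.8, 42.3, and 41.7 in LT15d, a fall that was not called without CK replicate 1 (log2 fold change -1.61 with and -0.37 without it).

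Photosynthetic genes were downregulated, with a few strong exceptions. Of 62 tested genes of light harvesting and the photosystems, 9 rose and 37 fell (median -1.40), against 22.4% of all genes down. PH02Gene35419, a chlorophyll a-b binding protein gene, had an FPKM of 41.4, 58.9, and 80.5 in CK and 1.81, 1.9, and 2.49 in LT15d. Every LT15d library was under 3 FPKM and every CK library above 40 (log2 fold change -4.74 ± 0.57 (SE), edgeR adjusted p = 1.8e-06). The most abundant gene that fell, PH02Gene35533, was at 169, 254, and 268 in CK and 58.9, 55.2, and 57.5 in LT15d (log2 fold change -1.89 ± 0.31 (SE), edgeR adjusted p = 4.5e-05). One chlorophyll a/b binding protein gene, PH02Gene04237 (scaffold 9, 61921266 to 61924356), moved against the rest, at 192, 215, and 309.8 in CK and 941, 949, and 921 in LT15d. All LT15d libraries were far above CK (log2 fold change 2.1 ± 0.31 (SE), edgeR adjusted p = 1.9e-05), whereas RT15d was at 71.6, 71.3, and 72.2. This gene held 46.9% to 47.9% of the summed FPKM of the list in LT15d, 9.03% to 9.75% in CK, and 2.77% to 3.0% in RT15d. The summed FPKM of the list was 1964 to 1997 in LT15d and 2048 to 3179 in CK, close to each other at the nearest libraries. A light harvesting complex II type 1 gene, PH02Gene45538, rose likewise, from 15.4, 11.8, and 16.1 to 87.5, 87.9, and 90.6 (log2 fold change 2.77 ± 0.25 (SE), edgeR adjusted p = 5.9e-08). Green tissue markers, which overlap with this list, fell in 8 of 12 and rose in 1, with a summed FPKM of 408 to 698 in CK, 179 to 182 in LT15d, and 320.4 to 355 in RT15d, none of them at 0 in either group, and their part in the result was not tested.

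Genes of carbon fixation and chlorophyll synthesis were called less often than those of light harvesting. The summed FPKM of 15 Calvin cycle genes was 2154 to 2212 in LT15d, above the 788 to 1488 of CK and the 1394 to 1450 of RT15d. Of these genes, 2 rose (13.3%, against 16.2% of all genes) and 2 fell (13.3%, against 22.4%), with a median of 0.19. The lower calls numbered 0 without CK replicate 2 or 3 or LT15d replicate 1 or 3. With LT15d summed to 1 library, 1 rose and 0 fell. The Rubisco small subunit gene PH02Gene30287 had an FPKM of 345, 543, and 589.9 in CK and 1393, 1355, and 1360.0 in LT15d. CK replicate 1 was lowest, and the LT15d libraries were all above CK (log2 fold change 1.59 ± 0.46 (SE), edgeR adjusted p = 0.0066). Of 20 chlorophyll synthesis genes, 1 rose and 5 fell (median -0.37), against 2 and 3 without CK replicate 2, and 0 and 2 with LT15d summed to 1 library. The gene that rose, chlorophyllide a oxygenase (PH02Gene06841), which makes chlorophyll b, had an FPKM of 15.6, 41.2, and 48.2 in CK and 81.8, 74.8, and 81.5 in LT15d (log2 fold change 1.28 ± 0.39 (SE), edgeR adjusted p = 0.0087) and was not called without CK replicate 1. Glutamyl-tRNA reductase 2 (PH02Gene14878), at the start of the pathway, fell from 36.1, 105, and 63.1 to 25.8, 28.9, and 26.3 (log2 fold change -1.25 ± 0.27 (SE), edgeR adjusted p = 7.3e-04), a call that was lost without CK replicate 2.

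Genes of the cuticle and of very-long-chain fatty acids fell together. The cuticle of cutin and wax seals the culm surface, and its waxes are built from fatty acids that elongases extend step by step. Of 43 tested epidermis and cuticle markers, 1 rose (2.3%, against 16.2% of all genes) and 27 fell (62.8%, against 22.4%, median -2.07). Their summed FPKM was 647 to 1059 in CK, 198 to 207 in LT15d, and 552 to 607 in RT15d. The marker at 0 in every CK library was PH02Gene47331 and that at 0 in every LT15d library was PH02Gene08523, and the part of the epidermis in the result was not tested. The 3-ketoacyl-CoA synthase 10 gene PH02Gene05497, of the elongase, had an FPKM of 189, 65, and 90.5 in CK and 20.1, 20.8, and 19.8 in LT15d. The highest was CK replicate 1, and all CK libraries were above LT15d (log2 fold change -2.31 ± 0.35 (SE), edgeR adjusted p = 2.1e-05). The very-long-chain enoyl-CoA reductase gene PH02Gene04067, which completes each round of elongation, was at 343, 222, and 278 in CK and 42.1, 42.7, and 42.1 in LT15d, with little spread in either group (log2 fold change -2.57 ± 0.14 (SE), edgeR adjusted p = 1.7e-10). The hydroxyacyl-CoA dehydratase gene PASTICCINO 2 (PH02Gene47315) fell from 131, 95.9, and 118 to 16.4, 16.9, and 14.6 (log2 fold change -2.70 ± 0.17 (SE), edgeR adjusted p = 6.9e-10). A 3-ketoacyl-CoA synthase 17 gene, PH02Gene27712, was at 118, 8.67, and 7.72 in CK and 0.394, 0.511, and 0.628 in LT15d, with CK replicate 1 more than 10 times above the other CK libraries (log2 fold change -6.16 ± 0.94 (SE), edgeR adjusted p = 2.4e-05, and log2 fold change -3.95 without that library). The single marker that rose was 3-ketoacyl-CoA synthase 1 (PH02Gene33189), from 0.373 ± 0.22 to 5.6 ± 0.641 (mean FPKM ± SD, n = 3; log2 fold change 3.97 ± 0.52 (SE), edgeR adjusted p = 4.0e-06). In the KEGG pathway of fatty acid elongation, 4 of 58 tested genes rose (6.9%) and 35 fell (60.3%), and without CK replicate 1 34 fell. This pathway was picked for its high share of downregulated genes and can hold the same genes as the markers, so its count is no separate evidence.

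Terpene synthases, which make volatile and defensive terpenes, fell in larger shares than all genes (22.4%) under the terms given here. The terms were picked for their high share of downregulated genes, so the high shares follow from that choice. Under the GO term of sesquiterpene synthase activity, 18 of 25 genes fell (72%) and 0 rose (median -3.03). In LT15d against RT15d all 25 were lower, against 20.8% of all genes. PH02Gene28702, matched to a farnesol and nerolidol synthase of moso bamboo (scaffold 21, 67597975 to 67600665), had an FPKM of 777, 513, and 790.1 in CK and 18.4, 19.6, and 18.1 in LT15d. The LT15d level was far below that of any CK library (log2 fold change -5.06 ± 0.47 (SE), edgeR adjusted p = 7.8e-08), and RT15d was in between at 382, 364, and 362. Its neighbour PH02Gene28703 was at 686, 422, and 627 in CK and 33, 35.3, and 33.7 in LT15d (log2 fold change -3.93 ± 0.42 (SE), edgeR adjusted p = 4.9e-07). A germacrene D synthase gene, PH02Gene40249, fell from 522, 352, and 377 to 13.2, 11.4, and 12.5 (log2 fold change -4.92 ± 0.38 (SE), edgeR adjusted p = 9.0e-09). In monoterpenoid biosynthesis 11 of 21 genes fell (52.4%) and 0 rose. Among those that fell were the alpha-terpineol synthase-like genes PH02Gene45068 and PH02Gene50114, with mean FPKM of 57.8 and 58 in CK and 6.56 and 5.42 in LT15d.

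Jasmonate, ethylene, abscisic acid, and auxin genes fell in larger shares than all genes (22.4%), and no test compared the pathways. Jasmonate and ethylene genes (20.3%) and abscisic acid genes (27.3%) also rose in larger shares than all genes (16.2%). Of 74 jasmonate and ethylene genes, 15 rose (20.3%) and 32 fell (43.2%, median -0.97), with a summed FPKM of 3247 to 4935 in CK, 1685 to 1718 in LT15d, and 1189 to 1238 in RT15d. TIFY 10c-like (PH02Gene03055) belongs to the JAZ repressors, which jasmonate induces, and had an FPKM of 421, 971, and 564 in CK and 87.1, 82.4, and 87.1 in LT15d. All CK libraries were several times above LT15d (log2 fold change -2.83 ± 0.42 (SE), edgeR adjusted p = 1.6e-05). 12-Oxophytodienoate reductase 1 (PH02Gene40001), of a family that acts in jasmonate synthesis, rose from 7.04, 12, and 7.43 to 135, 135, and 134 (log2 fold change 4.04 ± 0.39 (SE), edgeR adjusted p = 1.5e-07). Abscisic acid (ABA) closes stomata and acts in cold and drought, and 6 of 22 genes of its pathway rose and 8 fell (36.4%; 5 with LT15d summed to 1 library). ABA 8'-hydroxylase breaks ABA down, and PH02Gene27952, matched to its form 3, had an FPKM of 2.43, 19.4, and 13.7 in CK and 379.6, 369, and 374 in LT15d. CK replicate 1 was lowest, and LT15d was far above every CK library (log2 fold change 5.05 ± 0.71 (SE), edgeR adjusted p = 9.9e-06). The kinase gene SAPK2 (PH02Gene40734), of ABA signalling in rice, was at 289, 193, and 163 in CK and 38.9, 33.4, and 35.6 in LT15d (log2 fold change -2.42 ± 0.15 (SE), edgeR adjusted p = 1.0e-09). Of 109 auxin genes, 11 rose and 38 fell (34.9%, median -0.65), or 23 with LT15d summed to 1 library. IAA-amino acid hydrolases free auxin from its conjugates, and PH02Gene08981 (ILR1-like 6) fell from 10.2, 21.9, and 20.5 to 0.575, 0.311, and 1.1 (log2 fold change -4.62 ± 0.45 (SE), edgeR adjusted p = 1.5e-07). Auxin response factor 23 (PH02Gene46465) rose from 59.5, 25, and 31.2 to 112, 113, and 116 (log2 fold change 1.74 ± 0.18 (SE), edgeR adjusted p = 3.0e-07). Of 10 gibberellin genes, 1 rose and 2 fell, near the shares of all genes, or 2 rose without CK replicate 2. Gibberellin 2-beta-dioxygenases inactivate the hormone, and of the matches to form 8, PH02Gene36729 rose from 0.555 ± 0.423 to 3.64 ± 0.432 and PH02Gene28428 fell from 2.94 ± 0.566 to 0.288 ± 0.155 (mean FPKM ± SD, n = 3).

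Immune receptor genes were broadly lower. Of 230 NLR genes, which encode intracellular immune receptors, 12 rose (5.2%, against 16.2% of all genes) and 101 fell (43.9%, against 22.4%, median -0.89). Of 78 wall-associated kinases, receptors at the cell wall, 10 rose (12.8%) and 45 fell (57.7%, median -1.46). Without CK replicate 1, 98 NLR genes and 41 wall-associated kinases fell. The summed FPKM of the NLR genes was 987 to 1238 in CK, 525 to 553 in LT15d, and 1225 to 1231 in RT15d. The RGA2-like gene PH02Gene10522, the most abundant that fell, had an FPKM of 96.9, 145, and 130.4 in CK and 39.9, 35.9, and 38.5 in LT15d, without overlap (log2 fold change -1.59 ± 0.17 (SE), edgeR adjusted p = 3.6e-07). RPS2 (PH02Gene03909) rose from 1.3, 2.72, and 3.05 to 10.6, 10.5, and 10.8 (log2 fold change 2.28 ± 0.29 (SE), edgeR adjusted p = 3.0e-06). Wall-associated receptor kinase 3 genes PH02Gene42232 and PH02Gene26659 were highest in CK replicate 1. PH02Gene42232 was at 120.2, 8.07, and 9.5 in CK and 0.553, 0.531, and 0.888 in LT15d (log2 fold change -5.85 ± 1.02 (SE), edgeR adjusted p = 9.4e-05, and log2 fold change -3.70 without that library). Wall-associated receptor kinase 2 (PH02Gene43646) rose from 8.93, 9.09, and 8.02 to 35.2, 33.8, and 37.2 (log2 fold change 2.16 ± 0.20 (SE), edgeR adjusted p = 6.8e-08). Of 79 chitinase, thaumatin, and glucanase genes, which attack fungal walls and in some plants include antifreeze proteins, 17 rose (21.5%) and 24 fell (30.4%, against 22.4% of all genes), or 23 and 14 without CK replicate 1, and 12 fell with LT15d summed to 1 library. Chitinase 8 (PH02Gene03004) had an FPKM of 246, 237, and 197 in CK and 1339.9, 1364, and 1345 in LT15d, with LT15d several times above CK (log2 fold change 2.71 ± 0.28 (SE), edgeR adjusted p = 2.4e-07). An osmotin-like gene (PH02Gene04978) rose from 0.876, 1.26, and 1.51 to 68.6, 68.6, and 63.1 (log2 fold change 5.88 ± 0.66 (SE), edgeR adjusted p = 7.9e-07).

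Enzymes that remove reactive oxygen rose in a larger share and fell in a smaller share than all genes (16.2% and 22.4%). Of 46 antioxidant genes, 12 rose (26.1%) and 5 fell (10.9%, median 0.22), and their summed FPKM was 4888 to 4955 in LT15d, 2830.0 to 3049.8 in CK, and 5687 to 6001 in RT15d. Against RT15d, 14 were higher and 11 lower, with a median of 0.01. Monodehydroascorbate reductase regenerates ascorbate, and PH02Gene44389 had an FPKM of 77.1, 123, and 102 in CK and 1335, 1312, and 1338 in LT15d. The LT15d libraries were far above CK (log2 fold change 3.83 ± 0.18 (SE), edgeR adjusted p = 3.8e-11), and RT15d was at 135, 136, and 134. Chloroplast glutathione reductase (PH02Gene43595) rose from 7.3, 13.8, and 16.9 to 64.1, 65.1, and 63.6 (log2 fold change 2.45 ± 0.26 (SE), edgeR adjusted p = 3.3e-07). Of 77 glutathione S-transferases, which conjugate toxic compounds, 18 rose (23.4%) and 13 fell (16.9%). GSTU6 (PH02Gene46293) had an FPKM of 52.8, 27, and 24.4 in CK and 726, 718, and 720.2 in LT15d (log2 fold change 4.55 ± 0.45 (SE), edgeR adjusted p = 1.5e-07), while another GSTU6 match, PH02Gene34961, was at 135, 36.7, and 64.7 in CK and 14.6, 14.9, and 15.6 in LT15d, with CK replicate 1 highest and no overlap (log2 fold change -2.19 ± 0.33 (SE), edgeR adjusted p = 2.0e-05). Of 129 UDP-glycosyltransferases, 34 rose (26.4%) and 30 fell (23.3%), and the most abundant that rose was PH02Gene45455, from 22.4 ± 5.58 to 163 ± 0.689 (log2 fold change 2.97 ± 0.30 (SE), edgeR adjusted p = 1.9e-07). Germin-like proteins, wall glycoproteins some of which make hydrogen peroxide, filled the GO terms of oxalate decarboxylase activity and oxalate metabolic process, in which 31 of 42 genes rose and 2 fell. These terms were picked for their high share of upregulated genes. Germin-like protein 8-7 (PH02Gene23364) had an FPKM of 0.306, 0.483, and 0.211 in CK and 83, 80.1, and 85.3 in LT15d, with the groups far apart (log2 fold change 8.04 ± 0.80 (SE), edgeR adjusted p = 2.0e-07). Germin-like protein 8-8 (PH02Gene50184) was at 17.4, 6.25, and 6.14 in CK and 122, 128, and 123 in LT15d, with CK replicate 1 highest among the controls (log2 fold change 3.83 ± 0.51 (SE), edgeR adjusted p = 5.2e-06).

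Heat shock proteins, chaperones that refold proteins, and their transcription factors rose in 28 of 78 genes (35.9%, against 16.2% of all genes) and fell in 15 (19.2%, against 22.4%). The median log2 fold change was 0.25. Their summed FPKM did not rise, with 3993 to 4042 in LT15d, 4073 to 5171 in CK, and 3737 to 3816 in RT15d. The heat stress transcription factor C-2a gene PH02Gene32696 had an FPKM of 17.6, 4.02, and 3.59 in CK and 214, 207, and 200.3 in LT15d, with CK replicate 1 the highest control and all LT15d libraries far above it (log2 fold change 4.84 ± 0.61 (SE), edgeR adjusted p = 2.9e-06). A 16.6 kDa heat shock protein gene, PH02Gene22223, rose from 0.335, 0.658, and 0.294 to 85.1, 82.6, and 73.6 (log2 fold change 7.61 ± 0.57 (SE), edgeR adjusted p = 7.4e-09). The Hsp90 gene PH02Gene07542 fell from 497, 532, and 577 to 115, 113, and 112 (log2 fold change -2.10 ± 0.14 (SE), edgeR adjusted p = 1.4e-09).

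Ribosomal and cell cycle genes were called in shares near or below those of all genes (16.2% up, 22.4% down). Of 284 cytosolic ribosomal protein genes, 4 rose and 51 fell (median -0.40), and without CK replicate 1, 10 rose and 34 fell. Without CK replicate 2 or 3, 1 or 2 of them rose. Both shares were below those of all genes. The summed FPKM of the cytosolic list was 8814 to 8928 in LT15d, below the 9585 to 17064 of CK and the 15800 to 16276 of RT15d. Against RT15d, 4 of these genes were higher and 65 lower (median -0.54). 60S ribosomal protein L36a (PH02Gene33451) had an FPKM of 161, 104, and 122 in CK and 51.3, 52.3, and 50.3 in LT15d (log2 fold change -1.17 ± 0.11 (SE), edgeR adjusted p = 1.1e-07). Of 63 organellar ribosomal protein genes, 11 rose and 7 fell (12 without CK replicate 1). Of 128 cell cycle and histone genes, 20 rose (15.6%) and 26 fell (20.3%), close to the shares of all genes, or 16 fell with LT15d summed to 1 library. Cyclin-D5-1-like (PH02Gene38666), a cell cycle regulator, fell from 9.79, 5.13, and 7.68 to 0.0427, 0.0466, and 0 (log2 fold change -7.42 ± 0.53 (SE), edgeR adjusted p = 3.8e-09), and PCNA (PH02Gene32591), the clamp of DNA replication, from 24.7, 8.72, and 11.9 to 4.96, 4.98, and 4.66 (log2 fold change -1.44 ± 0.21 (SE), edgeR adjusted p = 1.2e-05). Histone H2B.2-like (PH02Gene44357) rose from 55.3, 45.7, and 60.3 to 123, 112, and 121 (log2 fold change 1.29 ± 0.10 (SE), edgeR adjusted p = 1.4e-08). Markers of dividing cells rose in 5 and fell in 5 of 31 (3 with LT15d summed to 1 library), with a summed FPKM of 444 to 617 in CK and 534 to 550.0 in LT15d, which overlap. Of 37 cellulose synthase genes, 8 rose (21.6%) and 11 fell (29.7%; 7 without CK replicate 1), among them PH02Gene20766, which rose from 0.476, 1.06, and 1.15 to 15.3, 13.1, and 13.8 (log2 fold change 4.07 ± 0.38 (SE), edgeR adjusted p = 9.3e-08). Of 45 expansin, xyloglucan, and pectin genes, which loosen the wall, 15 rose (33.3%) and 13 fell (28.9%). A polygalacturonase gene, PH02Gene00883, rose from 0, 0, and 0.0712 to 24.4, 23.3, and 21.4 (log2 fold change 9.96 ± 0.65 (SE), edgeR adjusted p = 1.5e-09). Markers of xylem and secondary wall rose in 2 and fell in 3 of 16, and those of phloem rose in 1 and fell in 0 of 6, or 1 and 1 without CK replicate 1.

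The genes were also counted by the GO and KEGG terms of the deposited annotation. Terms with 20 to 500 tested genes were ordered by the share of their genes called in each direction, with no enrichment test, and among all genes with a KEGG pathway 16.3% were higher and 22.0% lower (GO, 16.2% and 22.1%). The KEGG pathways with the highest share of upregulated genes were vitamin B6 metabolism (12 of 34, 35.3%), C5-branched dibasic acid metabolism (7 of 20), and indole alkaloid biosynthesis (15 of 45). Phenylalanine metabolism had 29 of 93 genes up and 22 down. The pathways with the highest share of downregulated genes were antenna proteins of photosynthesis (20 of 29, 69%), fatty acid elongation, sesquiterpenoid and triterpenoid biosynthesis (37 of 63), and monoterpenoid biosynthesis. Among GO terms, oxalate decarboxylase activity (73.8% up), chloroplast RNA modification (11 of 22 up), and oxidation of metal ions, filled by laccases and ascorbate oxidases (14 of 30 up), led the upregulated terms. Sesquiterpene synthase activity (72% down), light harvesting in photosystem I (21 of 30), amidase activity (15 of 22), and very long-chain fatty acid biosynthesis (16 of 24) led the downregulated terms. Regulation of defense response, with the TIFY repressors and WRKY62-like (PH02Gene42845), had 33 of 58 genes down and 5 up. Among other large pathways, plant-pathogen interaction had 78 of 688 genes up and 253 down, phenylpropanoid biosynthesis 80 of 273 up and 67 down, starch and sucrose metabolism 107 of 381 up and 90 down, and glycolysis 58 of 281 up and 61 down. The chloroplast term, with 3091 genes, had 519 up and 628 down, a share close to that of all genes.

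**Figure D4:**
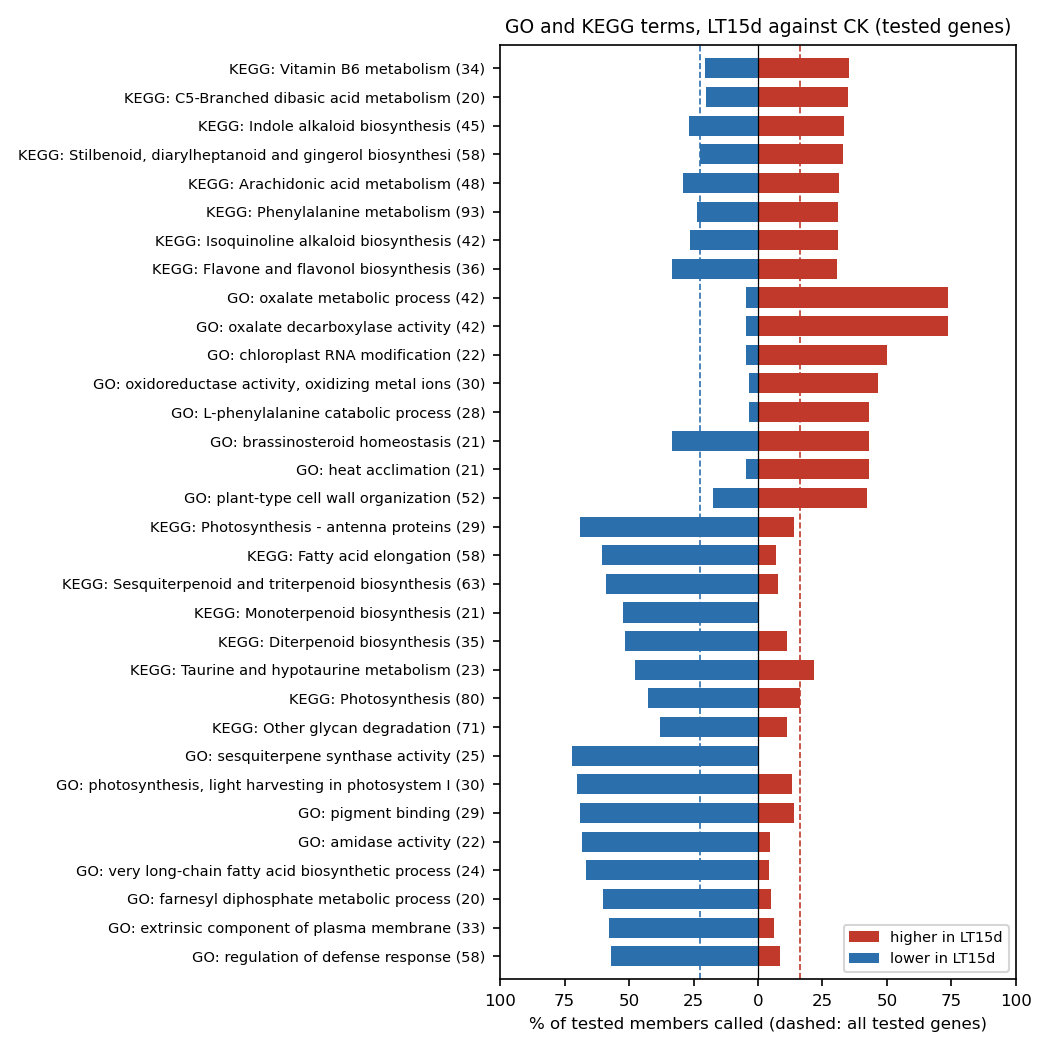
Share of the tested genes of GO and KEGG terms called higher (red, right) or lower (blue, left) in LT15d against CK, with the number of tested genes in brackets. The 8 terms of each kind and direction with the highest share are shown, and dashed lines mark all tested genes (16.2% higher, 22.4% lower). Oxalate decarboxylase activity reaches 73.8% upregulated, and sesquiterpene synthase activity 72.0% downregulated.

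Against RT15d, which shared the 15 days but not the cold, 5766 genes (19.3%) were higher and 6235 (20.8%) lower in LT15d. With scaling to the library total alone, the split was 4079 higher and 8569 lower, and the median of all genes moved from -0.02 to -0.37, so directions of gene groups close to 0 depend on the scaling in this comparison. LEA and dehydrin genes were higher in 12 of 16 (median 4.07), raffinose genes in 10 of 12 (median 2.56), and laccases in 14 of 23 (median 2.95). Light harvesting and photosystem genes were lower in 31 of 62 (median -1.43), NLR genes in 116 of 230 (median -1.11), and wall-associated kinases in 43 of 78 (median -1.37). Jasmonate and ethylene genes were higher than in RT15d in 31 of 74 and lower in 14 (median 0.78). Against CK, 15 of them were higher and 32 lower. Abscisic acid genes were higher than in RT15d in 10 of 22 and lower in 2 (median 0.83). RT15d itself differed from CK by 3122 higher (10.4%) and 4578 lower genes (15.3%), and since both comparisons use the same CK libraries, their calls are not independent. TDC genes were higher in LT15d than in RT15d in 2 of 5 and lower in 1. PH02Gene42909 was at 13.4, 12.8, and 13.9 in RT15d, between CK and LT15d (log2 fold change 2.39 ± 0.60 (SE), edgeR adjusted p = 0.0022). Vacuolar invertase (PH02Gene05689) was at 125, 112, and 130.4 in RT15d, above CK and below LT15d (log2 fold change 1.96 ± 0.43 (SE), edgeR adjusted p = 7.2e-04). WCOR410c (PH02Gene13412) was at 72.6, 80.1, and 81.7 in RT15d, below all CK and LT15d libraries (log2 fold change 5.05 ± 0.41 (SE), edgeR adjusted p = 1.8e-08).

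Within the cold series, LT15d differed from LT1d in 5302 higher (17.7%) and 5656 lower genes (18.9%), and from LT25d in 4854 higher (16.2%) and 5029 lower genes (16.8%). Scaling to the library total alone gave 2700 higher and 8255 lower genes against LT25d, with the median of all genes at -0.43 in place of 0.01. Dehydrin and LEA genes were higher at LT15d than at LT1d in 13 of 16, and higher than at LT25d in 8. Light harvesting and photosystem genes were higher at LT15d than at LT1d in 44 of 62 and lower in 3 (median 2.51), with a summed FPKM of 165 to 196 at LT1d. Calvin cycle genes were higher than at LT1d in 12 of 15. TDC genes were lower than at LT1d in 3 of 5, led by PH02Gene42909 with a mean FPKM of 257 ± 2.04 at LT1d (SD, n = 3; log2 fold change -2.32 ± 0.60 (SE), edgeR adjusted p = 0.0029). Shikimate and tryptophan genes were likewise lower in 22 of 47 and higher in 7. Lignin monomer genes were higher at LT15d than at LT25d in 48 of 97 and lower in 14. CAD5 (PH02Gene38470) was at 14.3, 44.9, and 30.3 at LT1d and 47.9, 44.4, and 45.8 at LT25d, so both neighbouring time points were close to CK and LT15d was above them all (log2 fold change 4.24 ± 0.61 (SE), edgeR adjusted p = 1.7e-05 for LT15d against LT25d). Cytosolic ribosomal protein genes were lower at LT15d than at LT25d in 85 of 284 and higher in 0, with a median of -0.67. NLR genes were higher at LT15d than at LT25d in 58 of 230 and lower in 22.

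**Figure D5:**
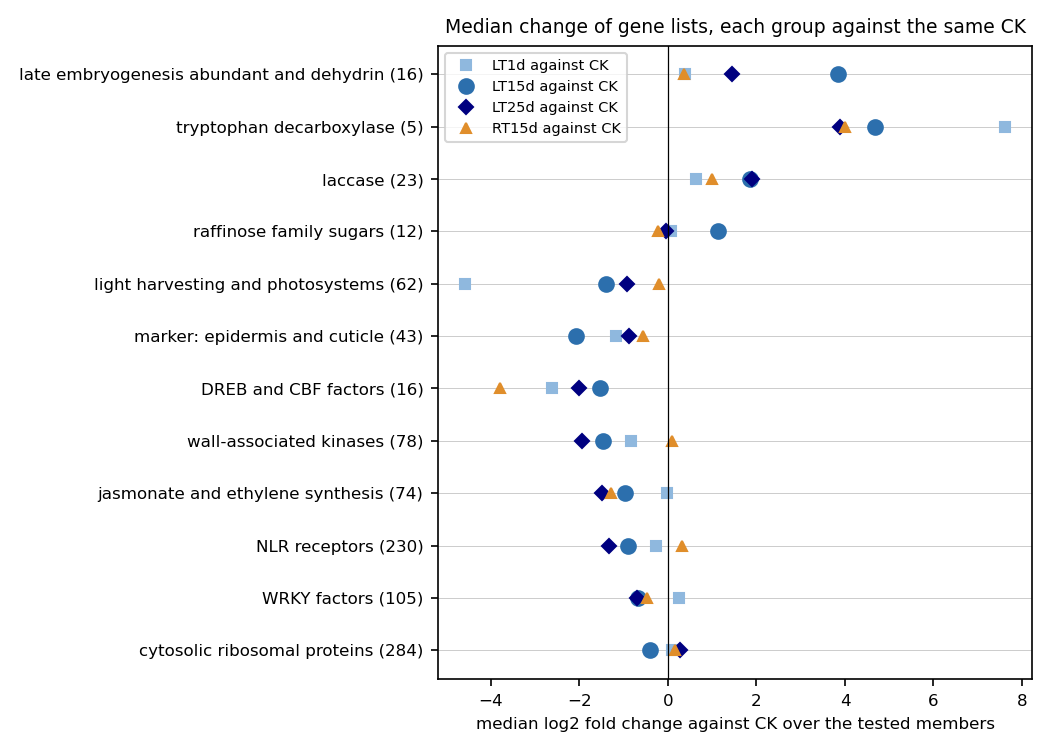
Median log2 fold change against CK over the tested members of 12 gene lists (members in brackets) for LT1d (squares), LT15d (circles), LT25d (diamonds), and RT15d (triangles), all against the same 3 CK libraries, which the points therefore share. LEA and dehydrin genes have their highest median at LT15d (3.85, against 0.38, 1.44, and 0.37 at LT1d, LT25d, and RT15d), TDC genes at LT1d (7.62), and light harvesting genes their lowest at LT1d (-4.58).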

How the data were processed

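Messenger RNA from Pn culms of 21 libraries in 7 groups was sequenced by the authors with paired reads, which they cleaned, aligned to the moso bamboo genome with HISAT2, assembled with StringTie, and quantified with ballgown. The submitters' processing notes also name cutadapt, FastQC, and Salmon, without versions. The authors deposited 1 table with estimated counts and FPKM per gene and library, and no source used here names the tool behind the counts. The counts are whole numbers as deposited. Among low values a count of 4 was the commonest, so a read pair may have given 4 counts, and dividing the counts by 4 was tried as an alternative. The deposited annotation pairs 41202 of 42460 genes with a description.

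Genes that reached an FPKM of 1 in 3 or more libraries were fitted over all 21 libraries with edgeR 4.0.16 (R 4.3.3), TMM scaling, and the quasi-likelihood test, with no covariate. A gene was called at an adjusted p (Benjamini-Hochberg, over all tested genes) up to 0.05 and a log2 fold change of 1 or more in size. SE is the standard error of a log2 fold change. DESeq2 1.42.0, limma 3.58.1 on log2(FPKM + 1) or log2(FPKM + 0.1), other scalings, other filters, fits of only the 6 compared libraries, leaving out each library, and summing LT15d to 1 library were the alternatives. The test was tried on simulated counts first. Lists of members were drawn by words in the gene descriptions (46 lists), and the comparison and the lists were chosen with earlier results of these data known. Named were the 12 largest rises and the 12 largest falls among described genes without overlap and with a mean of at least 10 FPKM in the higher group, the 3 most abundant genes of LT15d and of CK, and per list the most abundant called gene in each direction, the 2 largest changes with a mean of at least 5 FPKM, and every tested member of lists of up to 6. A further 50 genes, the 3 most abundant called per direction in 12 terms, were chosen after their values were seen. Total counts were 44726468 to 49887642 per library compared, so counting error is small for the abundant genes. The bounds given against 0 use the mean of the 3 libraries of the higher group and cover counting error only. Of the alternative oxidase, SNAT and ASMT, polyphenol oxidase, and TDC lists, every tested member is given.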

Additional observations from a re-analysis of the deposited data

Results flagged for a closer look

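In 15 of the named genes the change from CK after 15 days had opposite signs at 4 °C and at 25 °C, each past the threshold of edgeR's quasi-likelihood test, and the test of the difference is that of LT15d against RT15d. The CK libraries are common to both changes. Of the cold protection and lignin genes, WCOR410c (PH02Gene13412) had a log2 fold change of 5.05 in LT15d against RT15d, and CAD5 (PH02Gene38470) of 6.13, both up from CK in the cold and down at 25 °C (1.57 and -3.48 for WCOR410c, 4.54 and -1.60 for CAD5). The light harvesting genes PH02Gene04237 and PH02Gene45538 differed by 4.10 and 5.59 on the log2 scale. Of the transcription factors, CRF5 (PH02Gene25072) differed by 5.27, and the NAC48-like genes PH02Gene10707 and PH02Gene33943 by 4.60 and 6.10. Of the hormone genes, ABA 8'-hydroxylase 3 (PH02Gene27952) differed by 6.65, 12-oxophytodienoate reductase 1 (PH02Gene40001) by 5.44, and a phytosulfokine receptor gene (PH02Gene43145) by 2.60. Expansin-A29 (PH02Gene24828) had no count in RT15d, so its fitted log2 difference of 12.03 is no bound, and its FPKM was 0, 0.0513, and 0.20 in CK and 5.8, 5.41, and 5.73 in LT15d. A GDSL esterase/lipase gene (PH02Gene08251), of a family that also makes cutin, differed by 5.09. The genes that went the opposite way, down in the cold and up at 25 °C, were GSTU6 (PH02Gene34961, log2 fold change -3.21 in LT15d against RT15d), an Eceriferum-u gene (PH02Gene41075, -9.42), and germin-like protein 5-1 (PH02Gene43501, -3.23). Without CK replicate 1 the fall of PH02Gene41075 from CK went from -6.61 to -3.38, and that of PH02Gene43501 from -1.78 to -0.90, which was no longer called.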

How the results depend on the processing

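The counts of DEGs stayed within 1.5 times under DESeq2, RLE scaling, no filter, fits of only the 6 compared libraries, counts divided by 4, and the summed LT15d libraries. In LT15d against CK, leaving out a library gave 4651 to 4968 higher and 6331 to 6620 lower genes. They moved further when only genes with a mean of at least 5 FPKM were tested, which tests fewer genes: to 2396 higher and 3608 lower against CK, 3148 and 3078 against RT15d, 2831 and 3074 against LT1d, and 2511 and 2626 against LT25d. With limma on log2(FPKM + 1), 3125 genes were higher against CK, 3010 higher against RT15d, 3601 lower against LT1d, and 2033 higher against LT25d. Against LT25d, library-size scaling gave 2700 higher and 8255 lower genes, and limma on log2(FPKM + 0.1) 2896 and 7722, and the cause was not tested. With the replicate number as a block, 4898 were higher and 6536 lower against CK, but same-numbered CK and LT15d libraries did not deviate together (correlations across genes of -0.0058 to 0.0047 for matching numbers). Of 246 named genes, 26 lost their call when LT15d was summed to 1 library, 12 in the fit of only the 6 compared libraries, and 10 each without CK replicate 1, 2, or 3. Of 4 genes that were not called, the log2 fold change turned: PH02Gene00168 (heat shock cognate 70 kDa protein 2) from -0.20 to 0.19 without CK replicate 2 (and to -0.61 without CK replicate 1), PH02Gene07987 (ASMT1) from -0.43 to 0.50 without CK replicate 1 (and to -1.34 without LT15d replicate 3), PH02Gene28253 from 0.25 to -0.022 without LT15d replicate 1 (and to 0.38 without LT15d replicate 3), and PH02Gene20975 from 0.07 to -0.015 with library-size scaling, -0.027 with limma on log2(FPKM + 0.1), and -0.026 on log2(FPKM + 1), and to -0.17 to 0.27 with a library left out. Over the 1791 genes with more than 5000 counts on average, replicates varied by a median of 2.48% in LT15d and 23.0% in CK. The same value was 2.55% in LT25d and 3.03% in RT15d. The small spread of the LT15d libraries may be technical, which was not tested.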

Other observations

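Clock and flowering-time genes were higher in LT15d in 8 of 21 (38.1%) and lower in 2 (9.5%), with a median log2 fold change of 0.29. The shares of all genes were 16.2% and 22.4%. Fewer of the clock genes were lower with LT15d summed to 1 library. A CONSTANS-like gene, PH02Gene16430, of a family of day-length regulators, had an FPKM of 0.106, 0.242, and 0.463 in CK and 23, 20.2, and 21.4 in LT15d, and the groups were far apart (log2 fold change 6.42 ± 0.36 (SE), edgeR adjusted p = 2.6e-10). Another, PH02Gene22495, rose from 9.17, 15.9, and 12.6 to 37.6, 37.1, and 37.2 (log2 fold change 1.68 ± 0.38 (SE), edgeR adjusted p = 0.0011). No source used here gives the time of day of sampling, and its part in these values was not tested. Of 20 aquaporins, which let water cross membranes, 4 rose (20%, against 16.2% of all genes) and 7 fell (35%, against 22.4%). Fewer fell with LT15d summed to 1 library. A PIP-type gene, PH02Gene23321, was at 228, 157, and 157 in CK and 583, 560.5, and 559 in LT15d (log2 fold change 1.81 ± 0.17 (SE), edgeR adjusted p = 1.2e-07) and at 567, 518, and 580.5 in RT15d, close to LT15d. The vacuolar TIP1-2 gene PH02Gene34465 fell from 33.3, 198, and 159.6 to 3.67, 3.96, and 2.96, with CK replicate 1 lowest of the controls (log2 fold change -5.13 ± 0.91 (SE), edgeR adjusted p = 1.1e-04).

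Lipid transfer proteins, which carry lipids to the cell surface, rose in 9 of 26 genes (34.6%) and fell in 4 (15.4%). The shares of all genes were 16.2% and 22.4%. PH02Gene08747, matched to Arabidopsis At2g13820, had an FPKM of 23.9, 125, and 54.1 in CK and 532, 541, and 534 in LT15d, and CK replicate 2 was the nearest control to LT15d (log2 fold change 3.05 ± 0.61 (SE), edgeR adjusted p = 3.4e-04). In vitamin B6 metabolism, the most abundant genes that rose were aldo-keto reductase genes. PH02Gene44833 was at 152, 133, and 134 in CK and 1151, 1167, and 1159 in LT15d and 126, 125, and 127 in RT15d (log2 fold change 3.20 ± 0.25 (SE), edgeR adjusted p = 1.0e-08), and PH02Gene50358 rose from 20.9, 13.7, and 13.2 to 117, 121, and 121 (log2 fold change 3.07 ± 0.19 (SE), edgeR adjusted p = 9.4e-10). Under heat acclimation, 9 of 21 genes rose and 1 fell, among them a temperature stress-induced lipocalin (PH02Gene31306), with 13.3, 16.1, and 18.3 in CK, 73.6, 71.6, and 74.2 in LT15d, and 136, 128, and 144 in RT15d (log2 fold change 2.33 ± 0.45 (SE), edgeR adjusted p = 2.4e-04).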
